A study of Rattus norvegicus with 3 samples.

Results

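Glutamate, GABA and glycine carry fast signals between spinal neurons, glutamate as the main excitatory transmitter and GABA and glycine as the inhibitory ones. After release they are cleared by sodium-driven transporters in the plasma membrane of neurons and astrocytes, and vesicular transporters driven by a proton gradient load them into synaptic vesicles. Glutamate taken up by astrocytes is converted to glutamine by glutamine synthetase, the product of GLUL, and returned to neurons, where it is turned back into glutamate and, in inhibitory neurons, into GABA.

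The genes described here are 8 transporters of these transmitters (SLC1A1, SLC1A2, SLC6A5, SLC6A9, SLC6A11, SLC17A6, SLC17A7 and SLC32A1) and the enzyme gene GLUL, found in the table by symbol. Of these 9 genes, 8 had an entry under their symbol among the 12758 symbols of the table, each listed once. SLC6A11, the gene of the GABA transporter GAT-3, had no entry under its symbol or synonyms. The paper gives the markers EAAT2, GLYT2 and VGLUT2 as not detected, while their genes SLC1A2, SLC6A5 and SLC17A6 have values here. Those of SLC6A5 (1.77 and 1.04 FPKM in No-SCI and SCI) and SLC17A6 (2.14 and 1.67 FPKM) lie near 1, the lowest value of the table. They do not by themselves show detection. The RNA came from spinal cord of female Sprague Dawley rats of 3 months that underwent a T9 laminectomy, with no contusion in the No-SCI group and with 250 kdyne of impact force in the SCI group. At 24 h a piece of cord just above the injury was digested at 6°C with cold active protease, and the supernatant that remained after the cells were pelleted was sequenced as an acellular fraction meant to hold axonal RNA. The controls thus share the surgery and the digestion and differ by the contusion. GEO labels name 2 libraries as No-SCI and 1 as SCI, while the methods describe 2 animals for each condition. The values are the authors' FPKM, fragments scaled to transcript length and to library size, with 1 value for each group. No spread between animals, read count or replicate test stands behind a difference given here, so each is a description of the 2 group values. In bulk RNA, fewer cells or processes of a type and less RNA in each of them cannot be told apart.

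The 4 plasma membrane transporters had lower values after SCI, 3 of them by 2-fold or more, whereas GLUL and the vesicular glutamate transporter SLC17A7 were near their No-SCI level. SLC6A9 showed the largest difference among the 8 genes as deposited. Over all 8 genes, 7 were lower after SCI (7 of 8, or 87.5%), beside 56.3% of the 12771 entries of the table. Lower by at least 2-fold were 3 of the 8 (37.5%), beside 12.1% of all entries. At the limits of 1.5-fold and 1.3-fold the count was 5 of 8, beside 26.3% and 35.7% of all entries. The 1 gene with a higher value, SLC17A7, stands beside 43.7% of all entries, and none of the 8 was higher by 2-fold, as 7.96% of all entries were. The median log2 ratio of SCI over No-SCI was −0.68 over the 8 genes and −0.12 over all entries.

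**Figure D1:**
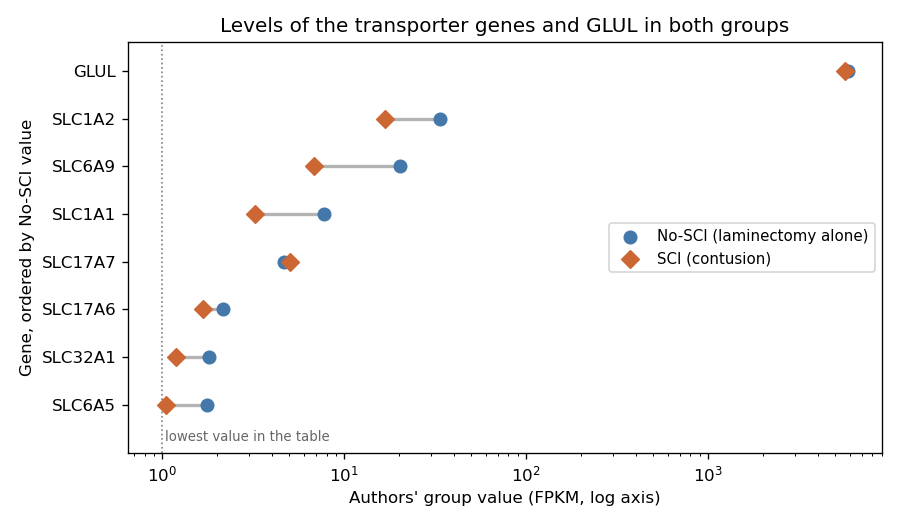
The authors' group value in FPKM (x axis, logarithmic) is plotted for each of the 8 genes, ordered by the No-SCI value, with circles for No-SCI and diamonds for SCI, and a dotted line at 1, the lowest value in the table. GLUL lies at 5858 and 5624 FPKM, far to the right of the transporters, whose values run from 1.04 to 33.7 FPKM.

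The plasma membrane carriers of glutamate were both lower after SCI. SLC1A2 encodes EAAT2 (GLT-1), the astrocyte transporter that carries out most glutamate uptake in the brain and cord. It had 33.7 FPKM in the No-SCI group and 16.7 FPKM after SCI, a log2 ratio of −1.01. This is 2.02-fold lower, just past the 2-fold limit, and with the median of all entries centred at 0 the log2 ratio of SLC1A2 was −0.89, short of that limit. Its place among all entries moved from percentile 65.6 to percentile 51.7. SLC1A1 encodes EAAT3 (EAAC1), which is found mainly on neurons and also carries cysteine. It had 7.73 FPKM in the No-SCI group and 3.22 FPKM after SCI, a log2 ratio of −1.26 or 2.40-fold lower. SLC1A2 was above SLC1A1 in both groups, 4.36 times in No-SCI and 5.19 times after SCI.

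The glycine carriers differed in level more than in direction. SLC6A9 encodes GlyT1, the mostly glial transporter that removes glycine from the synaptic cleft and from the surroundings of NMDA receptors, for which glycine is a co-agonist. It had 20.4 FPKM in the No-SCI group and 6.85 FPKM after SCI, a log2 ratio of −1.57. That is 2.98-fold lower, and 3.35% of all entries had a log2 ratio as low or lower. SLC6A5 encodes GlyT2, the carrier of glycinergic neurons that supplies glycine for refilling of their vesicles. It had 1.77 FPKM in the No-SCI group and 1.04 FPKM after SCI, a log2 ratio of −0.76. Both values of SLC6A5 are close to 1, the lowest value that occurs in the table, and SLC6A9 was 11.5 times as abundant in No-SCI and 6.56 times after SCI. With 1 subtracted from every value these ratios were 25.3 and 133, so whether the glycine carriers stood closer together or further apart after SCI cannot be read from the deposited values.

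The vesicular transporters were all low, at percentile 19.9 or below in No-SCI. SLC17A7 encodes VGLUT1, which in the cord is carried mainly by terminals of sensory and corticospinal fibres. It had 4.69 FPKM in the No-SCI group and 5.06 FPKM after SCI, a log2 ratio of 0.11, and was the 1 gene of the 8 with a higher value after SCI. SLC17A6 encodes VGLUT2, the vesicular glutamate transporter of excitatory spinal interneurons. It had 2.14 FPKM in the No-SCI group and 1.67 FPKM after SCI, a log2 ratio of −0.36. SLC32A1 encodes VIAAT (VGAT), which loads both GABA and glycine and so marks inhibitory terminals and neurons. It had 1.80 FPKM in the No-SCI group and 1.19 FPKM after SCI, a log2 ratio of −0.60. None of these 3 differed by 2-fold as deposited, and their summed level was 8.64 FPKM in the No-SCI group and 7.92 FPKM after SCI, while that of the 4 plasma membrane carriers was 63.5 and 27.8 FPKM.

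GLUL had 5858 FPKM in the No-SCI group and 5624 FPKM after SCI, ranks 16 and 18 of all entries. Its log2 ratio of −0.06 lay above the median of all entries by 0.06, and its sign turned to 0.06 when that median was centred at 0 and to 0.04 when both groups were scaled to the same upper quartile. The level of GLUL was 174 times that of SLC1A2 in No-SCI and 337 times after SCI, so these genes of glutamate uptake and glutamine synthesis, both known from astrocytes, stood further apart after injury. GLUL is also expressed by oligodendrocytes. The rat reference annotates 2 pseudogenes of GLUL, and how the authors' counting divided reads among such copies is not given in the sources used here, so the level of GLUL is uncertain to that extent.

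**Figure D2:**
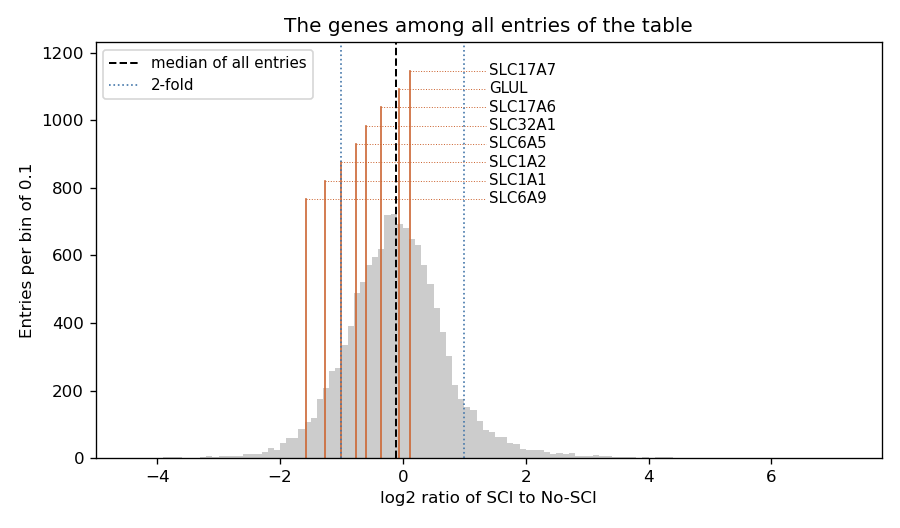
The grey histogram gives the number of entries (y axis) in bins of 0.1 of the log2 ratio of SCI over No-SCI (x axis), and each orange line marks a named gene, with a dashed line at the median of all entries and dotted lines at a 2-fold difference. SLC6A9, SLC1A1 and SLC1A2 lie at or beyond the lower 2-fold line, and GLUL and SLC17A7 lie to the right of the median.

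In No-SCI the order of levels from high to low was GLUL, SLC1A2, SLC6A9, SLC1A1, SLC17A7, SLC17A6, SLC32A1 and SLC6A5. After SCI the order differed in 2 places, since SLC17A7 stood above SLC1A1. SLC32A1 and SLC6A5 were the closest neighbours as deposited, 1.02 times apart in No-SCI and 1.14 times after SCI. With 1 subtracted they were 1.05 and 4.33 times apart, and after SCI SLC6A9 and SLC17A7, at 1.44 times, were then closer. SLC17A6 was 1.19 times SLC32A1 in No-SCI. No spread is known against which these steps could be set, so the order of such close neighbours is that of the deposited values alone.

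The low transporters depend on what the value 1 stands for. No value in the table is below 1, and 18 No-SCI and 37 SCI values are exactly 1. Of the No-SCI values from 1 to below 2, 84.7% carry 6 decimals, against 24.7% of those from 2 to below 10, which is the pattern that numbers of 6 digits would give if 1 were added to each. With 1 subtracted, SLC6A5 would be at 0.766 FPKM in the No-SCI group and 0.0441 FPKM after SCI, a log2 ratio of −4.12. SLC32A1 would be at 0.801 and 0.191 FPKM, a log2 ratio of −2.07, and SLC17A6 at 1.14 and 0.669 FPKM, a log2 ratio of −0.77. The genes at higher levels moved less, SLC6A9 to −1.73, SLC1A1 to −1.60, SLC1A2 to −1.06 and SLC17A7 to 0.14, and the count lower by 2-fold or more became 5 of 8, beside 16.2% of all entries. Subtracting 1 from both values cannot change which is larger, so the direction of each of the 8 genes was fixed. The fold of the inhibitory transporters SLC6A5 and SLC32A1 cannot be read from the deposited values alone.

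**Figure D3:**
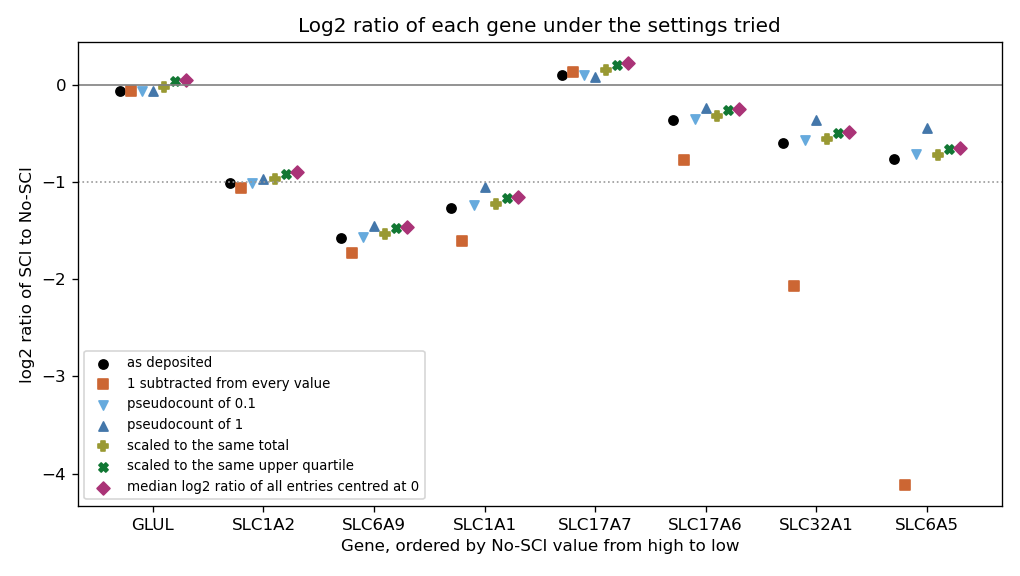
The log2 ratio of SCI over No-SCI (y axis) of each gene (x axis) is shown as deposited and under 6 other settings, each with its own marker. The settings nearly coincide for GLUL and SLC1A2 and spread most for SLC6A5, from −4.12 with 1 subtracted to −0.44 with a pseudocount of 1.

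Other transporters of these transmitters were taken as a list of 8 genes, 2 of which had an entry. SLC6A13 encodes GAT-2, which takes up GABA and taurine at the meninges and blood vessels, and it had 6.71 FPKM in the No-SCI group and 39.6 FPKM after SCI, a log2 ratio of 2.56. SLC6A13 thus went the other way from the 4 plasma membrane carriers above. A further 6 genes, among them SLC1A3, which encodes the second astrocyte glutamate transporter EAAT1, had no entry under their symbols.

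SLC6A13 is also on a list of 13 meningeal fibroblast markers, and all 11 of those with an entry were at least 2-fold higher after SCI, beside 7.96% of all entries. The summed level of these 11 genes was 63.8 FPKM in the No-SCI group and 849 FPKM after SCI, with CRABP2 at 17.3 and 382 FPKM, DCN at 15.1 and 156 FPKM and LUM at 7.02 and 23.8 FPKM. The part of meningeal tissue in the value of SLC6A13 was not tested.

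Neutral amino acid and glutamine transporters, which return glutamine to neurons and supply precursors, were lower in 11 of 12 genes with an entry (91.7%, beside 56.3% of all entries), with a median log2 ratio of −0.54. Lower by 2-fold or more were 2 of the 12 (16.7%), near the 12.1% of all entries. SLC38A3, the astrocyte glutamine exporter SNAT3, had 5.07 FPKM in the No-SCI group and 3.48 FPKM after SCI. SLC38A1, a glutamine carrier of neurons, had 33.3 and 23.0 FPKM. The largest differences were those of SLC6A15, a neuronal carrier of branched-chain amino acids and proline, with a log2 ratio of −1.77, and of SLC7A10, the carrier Asc-1 of D-serine and glycine, with −1.53. SLC7A11, the cystine and glutamate exchanger, had a log2 ratio of −0.77.

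Among 16 enzymes of glutamate, GABA and glycine metabolism with an entry, 15 were lower after SCI (93.8%, beside 56.3% of all entries), and the median log2 ratio was −0.51. The 2 that were lower by 2-fold or more (12.5%) were near the 12.1% of all entries. PC, the pyruvate carboxylase by which astrocytes make new glutamate carbon, had 228 FPKM in the No-SCI group and 58.8 FPKM after SCI, a log2 ratio of −1.95. GLUD1, the glutamate dehydrogenase, had 82.4 and 39.2 FPKM, a log2 ratio of −1.07. The GABA-synthesizing GAD1 and GAD2 were low in both groups, at 6.0 and 4.97 FPKM and at 2.78 and 1.83 FPKM. ABAT, which degrades GABA, had a log2 ratio of −0.97. GOT2, the mitochondrial aspartate aminotransferase, was the 1 enzyme with a higher value after SCI, a log2 ratio of 0.31. GLUL, at −0.06, therefore lay nearer to 0 than the median of these enzymes.

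Receptors of the same transmitters were lower for the most part. Of 15 glutamate receptor genes with an entry, 12 were lower after SCI (80%, beside 56.3% of all entries), 8 of them by 2-fold or more (53.3%, beside 12.1%), with a median log2 ratio of −1.03. Of 14 GABA and glycine receptor genes, counted with the scaffold gene GPHN, 12 were lower (85.7%), 5 by 2-fold or more (35.7%), with a median of −0.86. Genes of the vesicular proton pump and of the sodium, potassium and chloride gradients that drive transport were lower in 11 of 14 cases (78.6%) with a median of −0.43, and the 2 lower by 2-fold or more (14.3%) were near the 12.1% of all entries. Within that list the proton pump subunit ATP6V0C was at 416 and 430 FPKM, and the sodium pump subunit ATP1B2 had a log2 ratio of −1.84.

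**Figure D4:**
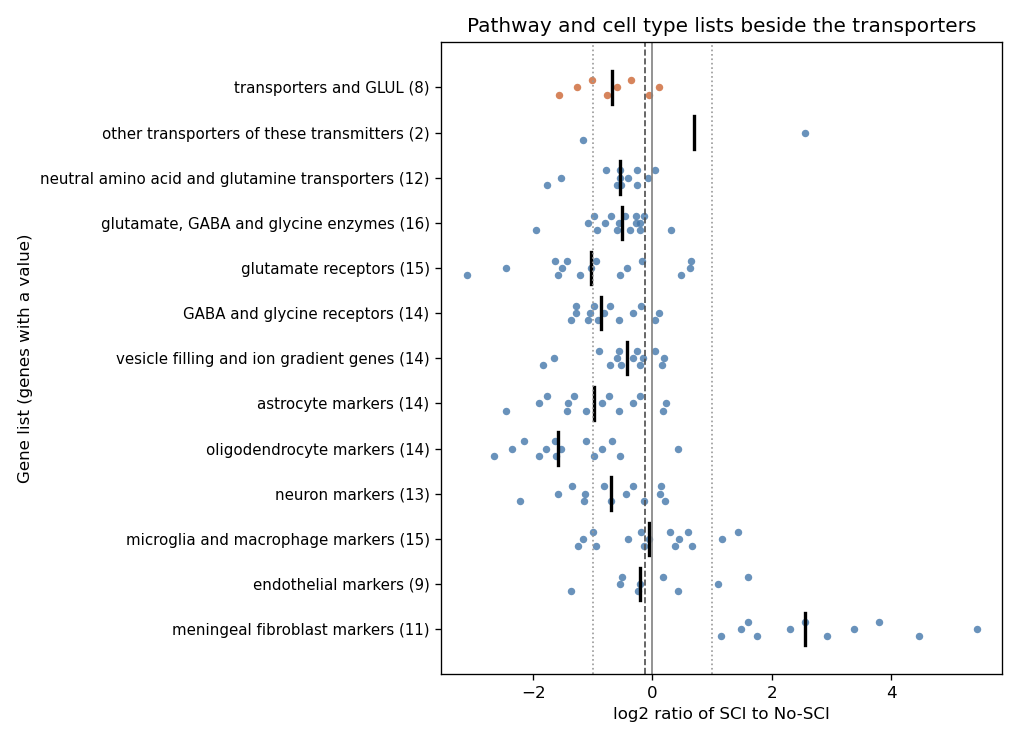
Each point shows a gene of a list by its log2 ratio of SCI over No-SCI (x axis) and its list (y axis, with the number of genes that have a value), black bars are list medians, the dashed line is the median of all entries and dotted lines mark a 2-fold difference. The transporters and GLUL have a median of −0.68, between −1.58 for the oligodendrocyte markers and −0.05 for the microglia and macrophage markers, and the meningeal fibroblast markers stand apart at 2.56.

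The cell types that carry these transporters were followed by markers. Of 20 astrocyte markers 14 had an entry, and 12 of these were lower after SCI (85.7%, beside 56.3% of all entries). Lower by 2-fold or more were 7 of the 14 (50%, beside 12.1% of all entries). The median log2 ratio of the 14 was −0.98, with a summed level of 22094 FPKM in the No-SCI group and 17117 FPKM after SCI. The most abundant were APOE at 10448 and 11804 FPKM, NDRG2 at 8001 and 3228 FPKM and FABP7 at 1636 and 983 FPKM. The defining markers GFAP, AQP4, S100B, ALDOC and SLC1A3 had no entry under these symbols, so the list lacks them. The log2 ratio of SLC1A2, −1.01, was close to the astrocyte median, and the list itself ran from −2.46 to 0.23. It was as close to the glutamate receptor median of −1.03, and GLUL, at −0.06, lay far from the astrocyte median. Of 15 neuron markers 13 had an entry, and 10 were lower (76.9%), 5 by 2-fold or more (38.5%). Their list had a median of −0.69 and a sum of 2392 and 2076 FPKM. GAP43 alone had 1275 and 1406 FPKM of these, a log2 ratio of 0.14, so it weighs heavily on both sums. The oligodendrocyte list had 14 of 15 genes with an entry, 13 of them lower (92.9%). Its sum was 88805 FPKM in the No-SCI group and 48651 FPKM after SCI. Microglia and macrophage markers summed to 1280 and 1461 FPKM, with 8 lower (53.3%) and 7 higher. Endothelial markers summed to 60.9 and 77.2 FPKM, with 5 lower (55.6%) and 4 higher. The shares lower in these last lists were near the 56.3% of all entries. The part of these cell types in the lower values of the transporters was not tested.

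SLC1A2 and GLUL were set beside those of all lists that lay closest to them in the plane of log2 FPKM in No-SCI and SCI, a likeness over 2 group values among 145 genes. For SLC1A2 the closest were the neuronal gene STMN2, at a distance of 0.14 with 31.3 and 17.8 FPKM, then the asparagine synthetase gene ASNS at 0.23 and the sodium pump gene ATP1B1 at 0.38. For GLUL the closest were NDRG2 at 0.92 and APOE at 1.36. No listed gene was therefore as near to GLUL as these were to SLC1A2, and APOE had a log2 ratio of 0.18.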

How the data were processed

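The members and the gene lists were chosen with earlier results of these data known. Per the labels and the study's methods, ribosomal RNA was depleted, strand-specific total RNA libraries were sequenced, and reads were downsampled to the smallest library and aligned to rn6 with STAR 2.5.4b. The deposited FPKM values were made by the authors with Cuffdiff (version 1.3.0 in the submitters' processing notes) and upper quartile normalization, 1 per group and entry. The table also holds the authors' p-values, q-values and fold changes of SCI against No-SCI, which were not used. The paper states a sequencing depth per sample, but the table gives no counts, so the reads behind each value and its precision are unknown. 0 measurement columns were left without a group.

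Log2 ratios of SCI over No-SCI were taken from the deposited values with no pseudocount, with percentiles over the 12771 entries, counts past a fold limit of 2, and medians and sums of 6 pathway and 6 marker lists. For the 13 symbols listed more than once, the entry of larger mean stood for the gene. GLDC, GRM3, SLC6A13, SLC1A3 and KCNJ10 are among those on more than 1 list. Named genes were all members, genes of the pathway lists, the 3 most abundant of a marker list, genes without an entry, and the 3 nearest genes to GLUL and to the highest transporter. A few genes under this rule are not given here. All 9 symbols matched the GRCr8 RefSeq table, which was used for names only. No sequence is printed, since the data measure whole genes. The log2 ratio and fold limit steps were checked on No-SCI values multiplied by known factors without noise. The percentile step was checked on a plain series of numbers. These checks cover the arithmetic only, not the gene lists, the scaling or the nearest genes. Python 3.11.15, numpy 2.4.6, pandas 2.3.3 and matplotlib 3.10.9 were used.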

Additional observations from a re-analysis of the deposited data

How the results depend on the processing

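The median log2 ratio of the 8 genes, −0.68 as deposited, was −0.40 with a pseudocount of 1, −0.63 with a pseudocount of 0.1, −1.33 with 1 subtracted from every value, −0.56 with the median of all entries centred at 0, −0.63 with both groups scaled to the same total, −0.57 with the same upper quartile, −1.14 for genes with a mean of at least 5 FPKM, −0.69 as a mean and −0.76 without GLUL. The count of genes lower after SCI was 7. It was 6 with centring (50% of all entries) and 6 with the same upper quartile (50.8% of all entries). A minimum mean of 5 FPKM left 4 genes, and 4 of these 4 were lower, beside 56.4% of the entries it left. That minimum dropped SLC17A7, the gene with a higher value, and kept SLC1A1, whose SCI value was only 3.22 FPKM. The 4 of 4 and the median of −1.14 thus depend on which genes the minimum kept. The count lower by 2-fold or more was 3, and it was 5 with 1 subtracted, 5 at a fold limit of 1.5 (26.3% of all entries) and 5 at 1.3 (35.7% of all entries). It was 2 under a pseudocount of 1 (9.53% of all entries), centring (9.59%), the same total (11.1%) and the same upper quartile (9.91%), where SLC1A2 no longer passed. Ordering by SCI moved 2 genes.

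The log2 ratio of GLUL turned to 0.058 with the median of all entries centred at 0 and to 0.044 with the same upper quartile. The other 7 genes kept their sign in the settings tried. A pseudocount, the subtraction of 1 or a minimum mean cannot turn the sign of a gene. Only centring and scaling to the same total or upper quartile could have done so. The median of the microglia and macrophage list turned to 0.067 with centring, 0.052 with the upper quartile and 0.078 with a mean of at least 5 FPKM, and that of the endothelial list to 0.64 with that minimum. No paired analysis was possible because the table holds 1 value per group, and for the same reason no library could be left out. The number of reads behind each value is unknown.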

Other observations

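Among the GABA and glycine receptor genes, the most abundant were GABBR1, which encodes a subunit of the GABA-B receptor, at 233 FPKM in the No-SCI group and 90.7 FPKM after SCI, and GPHN, which encodes the scaffold gephyrin of inhibitory synapses, at 193 and 91.3 FPKM. Both were lower by more than 2-fold. The glycine receptor genes were low and differed little as deposited, with log2 ratios of 0.11 for GLRA1, 0.04 for GLRA3 and −0.32 for GLRB. Among the glutamate receptor genes, GRM5 had 23.3 FPKM in the No-SCI group and 2.69 FPKM after SCI, a log2 ratio of −3.11. The AMPA receptor genes GRIA1, GRIA2, GRIA3 and GRIA4 had log2 ratios of −1.03, −1.51, −1.64 and −1.59. After SCI GRIA1 was at 1.27 FPKM and GRIA2 at 1.77 FPKM, close to the lowest value of 1, so their folds are uncertain. The 3 glutamate receptor genes with higher values after SCI were GRIN2C, GRIN2D and GRIK5, with log2 ratios of 0.65, 0.63 and 0.49.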
